A study of Mus musculus with 6 samples.

Results

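The phagocytic receptor group described here holds 7 genes, Trem2, Tyrobp, Clec7a, Cd9, Cd63, Cd68 and Syk, of the 27378 gene IDs counted in immune cells of mouse brain and early glioma. They were chosen by name, with earlier results of these data known. The cells were CD45+ and sorted by FACS, and were profiled with 10x Genomics 3' version 3 chemistry. The libraries fall into 3 groups of 2: gliomas with deleted Trp53 and Rbpj (Rbpj-deleted tumour), gliomas with deleted Trp53 and intact Rbpj (control tumour), and healthy brain with both genes intact. The labels give these genotypes for the tumours, which were found in dissection by the GFP of a Cre reporter; the sources used here do not name what drives the Cre. Both tumour groups thus share the Trp53 deletion, and the sequenced cells are immune cells of the host. The series design names pools of 9 Rbpj-deleted tumours, 15 control tumours and 9 healthy brains, whereas the extraction protocol loads the cells of each mouse in 1 well. The assignment of mice to libraries is not stated. Every p-value below therefore weighs a difference against the spread between libraries alone, and that spread may be technical. Age, sex and strain are not named either.

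Trem2 is a surface receptor of microglia and tissue macrophages that binds lipids, lipoproteins and debris of dying cells. It has no signalling tail of its own and passes its signal through the adaptor DAP12, the product of Tyrobp, whose phosphorylated ITAM motif recruits the kinase Syk. Clec7a (Dectin-1) is a C-type lectin that recognises beta-glucans and engages Syk through a motif in its own tail, while the tetraspanins Cd9 and Cd63 and the endosomal glycoprotein Cd68 belong to the membranes of the phagocytic and lysosomal pathway. In mouse models of brain disease, microglia that raise Clec7a, Cd9 and Cd63 are known as disease-associated microglia, a state whose full form depends on Trem2.

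After filtering, 14427 of 17362 barcodes remained, with 2361 and 1811 cells in Rbpj-deleted tumours, 979 and 504 in control tumours, and in healthy brain 6332 and 2440. The deposited libraries held 17430763 to 55229031 counts. Cells were clustered without the 7 genes, and clusters were named from marker lists. Microglia-like cells numbered 1112 and 504 in Rbpj-deleted tumours, 234 and 205 in control tumours and 4646 and 1655 in brain of healthy mice; monocyte/macrophage-like cells numbered 689 and 759, 222 and 82, and 1009 and 318 in the same groups. All 10 microglia markers had counts in the microglia-like class, but P2ry12, one of the defining ones, stood at only 6.62 to 24.9 CPM (counts scaled to a common total, defined below) there, against 1097 to 2471 CPM for Tmem119. The summed level of the 10 markers was 15610 and 18790 CPM in Rbpj-deleted tumours, 17400 and 18860 CPM in control tumours and 28820 and 29100 CPM in healthy brain. Unnamed clusters took 10.7% and 12.8% of Rbpj-deleted cells, 7.35% and 12.9% of control cells and 8.18% and 12.95% of healthy cells. The libraries also parted along another line: 5 of 5617 genes at 20 CPM or more in microglia-like cells, none of them described here, differed over 4-fold between the Rbpj-deleted libraries with healthy replicate 2 and the control libraries with healthy replicate 1, and 0 did with the healthy libraries exchanged. The sequences of 119 barcodes were shared between libraries, and the lesser copies were removed.

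On mm10 the genes lie on separate chromosomes except for Clec7a and Cd9. Trem2 (ENSMUSG00000023992) occupies chr17:48346401-48354147 on the plus strand, Tyrobp (ENSMUSG00000030579) chr7:30413760-30417585 on the plus strand, Clec7a (ENSMUSG00000079293) chr6:129461591-129472779 on the minus strand and Cd9 (ENSMUSG00000030342) chr6:125460266-125494791 on the minus strand. Cd63 (ENSMUSG00000025351) occupies chr10:128900989-128912822 on the plus strand, Cd68 (ENSMUSG00000018774) chr11:69664213-69666153 on the minus strand and Syk (ENSMUSG00000021457) chr13:52583173-52648792 on the plus strand. GENCODE vM21 lists Clec7a as a polymorphic pseudogene and the other 6 as protein-coding. Of the transcripts' 31-base words, 15.9% for Cd63 and 10.8% for Cd9 also occur in other annotated genes, so part of their counts could be split with near copies, and Cd9 overlaps Gm28809 and Gm26728 on the opposite strand. The share was at most 0.526% for each of the other 5 genes.

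The promoters of Trem2, Clec7a, Cd63 and Cd68 are printed, chosen after the values were seen, because these genes varied in different ways: Trem2 by cell class, Clec7a and Cd63 by group, while Cd68 had no called change. RefSeq (GRCm38.p6) had an entry for 6 of the 7 genes, without Tyrobp; where it lists 2 windows (Clec7a and Syk), the one nearest the annotated gene start was used. Each window runs from 250 bases before the start to 50 after it, 5' to 3' on the gene's strand, with capitals for GAGGAA (the core bound by PU.1, a myeloid factor, read on either strand, so also as TTCCTC) and for TGANTCA (the AP-1 site, both strands). The windows are chr17:48346151-48346450 (plus strand), chr6:129472730-129473029 (minus), chr10:128909095-128909394 (plus) and chr11:69666121-69666420 (minus). The only Cd63 window lies inside the gene, whose annotated start is at 128900989, so it shows an internal start.
Trem2: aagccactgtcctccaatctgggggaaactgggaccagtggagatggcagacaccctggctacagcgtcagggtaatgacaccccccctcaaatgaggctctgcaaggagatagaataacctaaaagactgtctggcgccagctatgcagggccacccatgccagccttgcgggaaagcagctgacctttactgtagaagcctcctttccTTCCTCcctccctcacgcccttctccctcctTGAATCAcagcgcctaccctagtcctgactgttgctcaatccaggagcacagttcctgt
Clec7a: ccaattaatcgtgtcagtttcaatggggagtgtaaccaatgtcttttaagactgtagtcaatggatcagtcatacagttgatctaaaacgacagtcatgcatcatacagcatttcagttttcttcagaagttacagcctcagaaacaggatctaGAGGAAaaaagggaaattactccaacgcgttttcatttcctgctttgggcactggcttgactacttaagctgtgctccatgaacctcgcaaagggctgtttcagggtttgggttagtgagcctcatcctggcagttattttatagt
Cd63: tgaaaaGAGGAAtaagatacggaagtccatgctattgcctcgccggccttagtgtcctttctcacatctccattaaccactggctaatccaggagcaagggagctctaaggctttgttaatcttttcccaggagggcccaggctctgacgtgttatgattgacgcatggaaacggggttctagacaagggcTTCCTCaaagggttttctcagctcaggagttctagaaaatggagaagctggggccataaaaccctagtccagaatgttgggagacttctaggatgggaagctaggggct
Cd68: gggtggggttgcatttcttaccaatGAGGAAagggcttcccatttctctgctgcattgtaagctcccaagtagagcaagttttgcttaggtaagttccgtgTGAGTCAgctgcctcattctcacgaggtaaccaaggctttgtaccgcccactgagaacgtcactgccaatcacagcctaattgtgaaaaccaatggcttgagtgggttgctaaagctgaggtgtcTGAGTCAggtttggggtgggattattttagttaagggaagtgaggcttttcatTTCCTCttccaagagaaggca
GAGGAA occurred 1 time in the Trem2 and Clec7a windows and 2 times in those of Cd63 and Cd68, and occurs in 28.3% of all 32851 RefSeq promoter windows. TGANTCA occurred 1 time in the Trem2 window and 2 times in the Cd68 window, against 7.81% of all windows with at least 1. The E-box CACGTG, found in 7.15% of all windows, was in none of the 6 members' windows, and the Cd9 and Syk windows held none of the 3 motifs. No motif in these windows overlapped another.

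Levels are given as CPM, a gene's counts scaled to 1e+06 counts summed over all cells of a class in 1 library, and are compared between samples and not between genes. Log2 changes come from edgeR's quasi-likelihood test on these sums with TMM scaling and are given ± SE, with p-values adjusted by Benjamini-Hochberg over all genes tested (11153 in microglia-like and 11234 in monocyte/macrophage-like cells); a gene was called at adjusted p under 0.05. All 7 genes passed the filter on low counts in both classes. Both tumour groups were set against the same healthy libraries. In microglia-like cells 4 of 7 genes were higher in Rbpj-deleted tumours than in healthy brain, where 8.37% of all genes tested were called higher, 3.35% lower and 11.7% in either direction. In control tumours 1 of 7 was higher than in healthy brain, against 3.08% of all genes higher, 0.439% lower and 3.52% in either direction. Between Rbpj-deleted and control tumours 0 of 7 were called, against 0.0628% of all genes higher, 0.0179% lower and 0.0807% in either direction. An unadjusted threshold was passed by more: 5 of the 7 had an unadjusted p under 0.05, as did 12.8% of all genes. That count of 0 was 4 by the DESeq2 Wald test, 5 without the filter on low counts, 4 without Rbpj-deleted replicate 1 and 1 with either healthy library left out. The first 3 of these settings also called many more of all genes tested, with the counts given at the end. The main share of 0.0807% is therefore not their background. None of the 7 fell in any comparison of this class. All of these calls were lost without the clusters that had no microglia marker among their 10 leading genes (led by Spp1, Csf1, Egr1 and Ifit3), which left 69 and 38 Rbpj-deleted cells. Nearly all calls among all genes tested were lost there too, with the counts given at the end, so this loss is not particular to the 7 genes. The classes held different clusters in each group: most microglia-like cells of Rbpj-deleted replicate 1 (68.2%) and many of the control cells (44.0% and 51.2%) lay in a cluster whose leading genes are Csf1, Egr3 and Tnf, while 80.4% of Rbpj-deleted replicate 2 lay in a cluster led by Spp1 and Fam20c. Healthy replicate 1 lay in clusters led by Slc2a5 (40.2% and 14.2%) and by Egr1 and Fos (37.95%), and 85.6% of healthy replicate 2 lay in a cluster led by Hspb1.

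**Figure D1:**
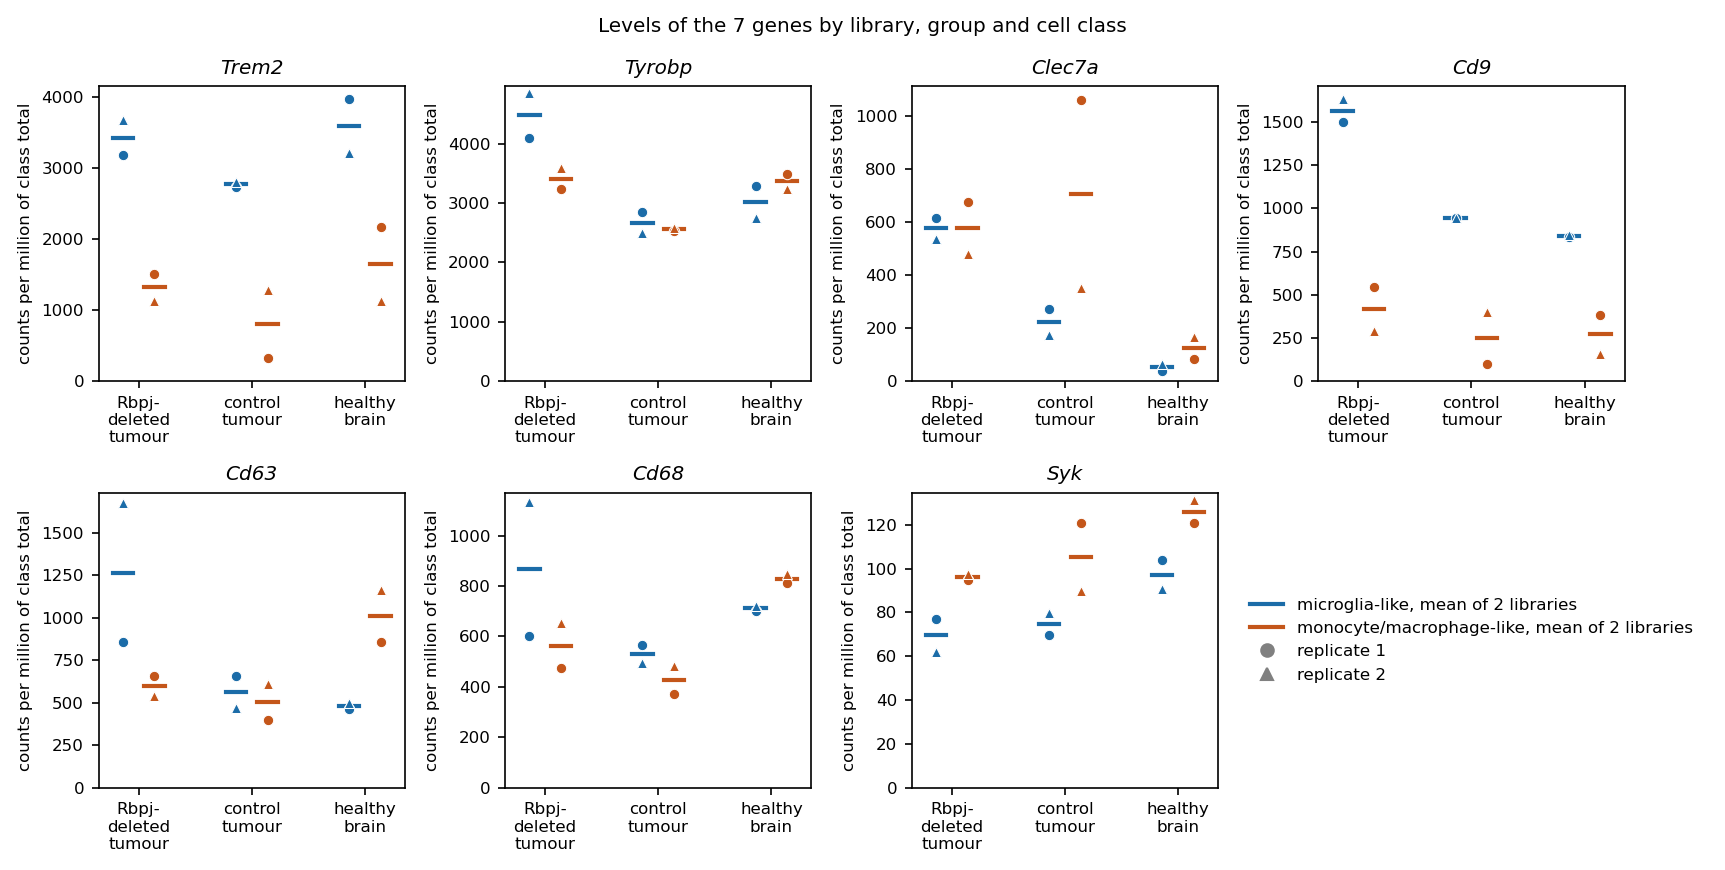
Each panel plots 1 gene's level in CPM (linear axis from 0) in the 3 groups, with 1 symbol per library and a bar at the mean of 2 libraries, for microglia-like cells (blue) and monocyte/macrophage-like cells (orange). Clec7a is above 170 CPM in every tumour library of both classes and below it in every healthy library, while Trem2 is higher in microglia-like cells of every library.

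Trem2, the receptor, was higher in microglia-like than in monocyte/macrophage-like cells of 6 of 6 libraries. In microglia-like cells it had 3182 and 3686 CPM in Rbpj-deleted tumours, 2743 and 2809 CPM in control tumours, and 3979 and 3211 CPM in healthy brain. Rbpj-deleted and healthy libraries overlapped, and both control libraries lay below all others. No comparison passed edgeR's test: the log2 change was 0.13 ± 0.21 for Rbpj-deleted tumour against healthy brain (adjusted p = 0.741), -0.26 ± 0.21 for control tumour against healthy brain (adjusted p = 0.624) and 0.40 ± 0.21 for Rbpj-deleted against control tumour (adjusted p = 0.446). Monocyte/macrophage-like cells had Trem2 at 1513 and 1128 CPM in Rbpj-deleted tumours, 328 and 1289 CPM in control tumours, and 2172 and 1129 CPM in healthy brain. The 3 groups overlapped there, control replicate 1 was the lowest library, and no comparison passed, with log2 changes between -0.76 and 0.72. The microglia marker sum of the same macrophage class moved with these levels: it was 6357 and 3803 CPM in Rbpj-deleted tumours, 1437 and 6367 CPM in control tumours and 13750 and 5775 CPM in healthy brain, so that control replicate 1 was lowest and healthy replicate 1 highest in both. The part of free microglial RNA in the macrophage level of Trem2 was not tested.

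Tyrobp, the DAP12 adaptor shared by Trem2 and other receptors, rose in microglia-like cells of Rbpj-deleted tumours. It had 4102 and 4852 CPM in Rbpj-deleted tumours, 2848 and 2487 CPM in control tumours, and 3286 and 2744 CPM in healthy brain. Both Rbpj-deleted libraries lay above all 4 others, and control and healthy libraries overlapped. The change against healthy brain was 0.77 ± 0.21 in log2 (edgeR adjusted p = 0.0376); that against control tumours was 0.84 ± 0.21 and was not called (edgeR adjusted p = 0.161). Control tumours stood at -0.07 ± 0.21 against healthy brain (edgeR adjusted p = 0.924). The call is a narrow one: the adjusted p lay between 0.0682 and 0.234 under library-size scaling, with the library split as a term, without the Csf1-led cluster, and without any 1 library other than Rbpj-deleted replicate 1. In monocyte/macrophage-like cells the level was 3239 and 3583 CPM in Rbpj-deleted tumours, 2533 and 2583 CPM in control tumours and 3489 and 3236 CPM in healthy brain. Control libraries were the lowest there, yet no change passed edgeR, the largest being 0.42 ± 0.35 between Rbpj-deleted and control tumours (adjusted p = 0.996).

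Clec7a, the beta-glucan receptor, differed more from healthy brain than any other of the 7 genes. In microglia-like cells it had 617 and 536 CPM in Rbpj-deleted tumours, 271 and 172 CPM in control tumours, and only 37.1 and 65.8 CPM in healthy brain. The 3 groups did not overlap. Against healthy brain it rose by 3.70 ± 0.32 in log2 in Rbpj-deleted tumours (12.98-fold, edgeR adjusted p = 6.7e-05) and by 2.23 ± 0.31 in control tumours (4.68-fold, edgeR adjusted p = 0.00269). Rbpj-deleted over control tumours gave 1.47 ± 0.30, not called (edgeR adjusted p = 0.115, from 2.7e-08 to 0.754 over its alternatives). The control-tumour call rests on the Csf1-led cluster, without which the change was 1.69 and the edgeR adjusted p 0.139. Without all clusters that had no marker of their own it was -0.42, and 1.65 for Rbpj-deleted tumours (edgeR adjusted p = 0.969 and 0.696). With every cell thinned to 2000 UMIs, a Clec7a UMI was found in 37.2% and 39.7% of microglia-like cells in Rbpj-deleted tumours, 13.9% and 11.4% of those in control tumours and 3.46% and 5.30% of those in healthy brain; unthinned shares were 54.3% and 54.4%, 25.2% and 41 of 205 cells, and 6.93% and 8.94% in the same groups. T-like cells, which should lack Clec7a, gave 0.990% to 8.16% thinned in the 4 tumour libraries, at median depths of 3661 to 10338 UMIs against 5257 to 9423 in microglia-like cells. The tumour shares lie above that T-like range and the healthy shares within it, but it was measured in tumour libraries alone. Other lymphoid classes differed. NK-like cells of the tumour libraries gave 0% to 9.62% thinned. B-like cells gave 7.69% in 1 Rbpj-deleted library, 11.1% in 1 control library and 0% in both healthy libraries. The lowest control share, 11.4%, is thus close to the B-like value of a control library, and the healthy shares lie above healthy B-like cells. Healthy microglia-like cells with Clec7a were not spread evenly: 42.4% and 55 of 110 cells of the Spp1-led cluster held a Clec7a UMI at 3000 UMIs per cell. The level was 381 and 564 CPM there, against 5.93 to 23.5 CPM in the healthy clusters led by Slc2a5, Egr1 and Hspb1. Markers of monocyte-derived macrophages moved with the group levels of Clec7a: all 10 had counts in microglia-like cells. They summed to 139 and 188 CPM in Rbpj-deleted tumours, 123 and 127 CPM in control tumours and 16.2 and 22.0 CPM in healthy brain. The sum was 908 to 4094 CPM in monocyte/macrophage-like cells of the tumours. Their part in the Clec7a level was not tested.

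In monocyte/macrophage-like cells Clec7a had 675 and 478 CPM in Rbpj-deleted tumours, 1062 and 352 CPM in control tumours, and 82.2 and 167 CPM in healthy brain. Every tumour library lay above both healthy ones, and the tumour groups overlapped. The rise against healthy brain was 2.82 ± 0.61 in log2 in control tumours (7.05-fold, edgeR adjusted p = 0.0446), the 1 call among the 7 genes, where 3.96% of all genes were called higher, 1.21% lower and 5.17% in either direction. For Rbpj-deleted tumours it was 2.50 ± 0.60 and just missed the threshold (edgeR adjusted p = 0.0639), so that 0 of 7 were called there, against 3.41% of all genes higher, 1.52% lower and 4.93% in either direction. Between Rbpj-deleted and control tumours 0 of 7 were called, as was 0% of all genes (0 of 11234 by edgeR, 506 at unadjusted p under 0.05 and 20 by DESeq2), and Clec7a stood at -0.32 ± 0.57. The control-tumour call was lost without any 1 library other than control replicate 2 (edgeR adjusted p between 0.0613 and 0.156), and without control replicate 1 the change was 1.75. The Rbpj-deleted change was called with either control library left out (edgeR adjusted p = 0.00512 and 0.00499) and without the Ccl8-led cluster, the one with no marker of its own (2.87, edgeR adjusted p = 0.00908), and the value against control tumours turned to 0.76 without control replicate 1. The clusters behind these values differ: a cluster led by Ccn1, Lyve1 and Pf4 held 5.52% and 4.48% of Rbpj-deleted cells and 11.3% and 9.76% of control cells, against 79.5% and 73.3% of healthy cells. Clusters led by Lyz1 and Ly6i and by Ccl8 and Gbp2b held most of the tumour cells.

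Syk, the kinase recruited by DAP12 and Clec7a, was called in no comparison of either class. In microglia-like cells it had 77.1 and 62.2 CPM in Rbpj-deleted tumours, 69.6 and 79.7 CPM in control tumours, and 104 and 90.6 CPM in healthy brain. All tumour libraries lay below both healthy ones, but the differences did not pass edgeR: -0.27 ± 0.19 for Rbpj-deleted tumours (adjusted p = 0.405) and -0.27 ± 0.20 for control tumours (adjusted p = 0.574). Its level in monocyte/macrophage-like cells was 94.8 and 97.6 CPM in Rbpj-deleted tumours, 121 and 89.6 CPM in control tumours, and 121 and 131 CPM in healthy brain, with log2 changes of -0.14 to 0.04 and no call.

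Cd9, a surface tetraspanin, rose in microglia-like cells of Rbpj-deleted tumours. It had 1497 and 1631 CPM in Rbpj-deleted tumours, 944 and 946 CPM in control tumours, and 833 and 846 CPM in healthy brain. The 3 groups did not overlap, and the libraries of each group lay close together. Against healthy brain the change was 1.10 ± 0.20 in log2 in Rbpj-deleted tumours (2.14-fold, edgeR adjusted p = 0.00391) and 0.28 ± 0.19 in control tumours (edgeR adjusted p = 0.547). Without the clusters that had no marker of their own the value for Rbpj-deleted tumours turned to -0.13 (edgeR adjusted p = 0.943). Rbpj-deleted over control tumours gave 0.82 ± 0.19 (edgeR adjusted p = 0.153). Monocyte/macrophage-like cells had Cd9 at 546 and 291 CPM in Rbpj-deleted tumours, 98.2 and 399 CPM in control tumours, and 385 and 159 CPM in healthy brain. The groups overlapped there, no change was called, and the lowest library was again control replicate 1, whose microglia marker sum was also the lowest.

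Cd63, the tetraspanin of late endosomes and lysosomes, had 859 and 1673 CPM in microglia-like cells of Rbpj-deleted tumours, 658 and 471 CPM of control tumours, and 464 and 499 CPM of healthy brain. Both Rbpj-deleted libraries lay above all others, replicate 2 by far the most, and control and healthy libraries overlapped. The border macrophage markers, all 10 with counts in microglia-like cells, were also high in that library, at 119 and 722.5 CPM in Rbpj-deleted tumours, 179 and 148 CPM in control tumours and 180.5 and 147 CPM in healthy brain. Without it the change against healthy brain was 1.03 (edgeR adjusted p = 0.00964). It rose in Rbpj-deleted tumours against healthy brain by 1.59 ± 0.30 in log2 (3.02-fold, edgeR adjusted p = 0.00793), a call lost without the Csf1-led cluster (1.52, edgeR adjusted p = 0.0553) and without the clusters that had no marker of their own (0.03). Control tumours stood at 0.34 ± 0.30 (edgeR adjusted p = 0.662), and Rbpj-deleted over control tumours at 1.26 ± 0.30 (edgeR adjusted p = 0.161). The order in monocyte/macrophage-like cells was the other way: 657 and 537 CPM in Rbpj-deleted tumours, 396 and 607.7 CPM in control tumours, and 858 and 1166 CPM in healthy brain. All tumour libraries lay below both healthy ones, yet neither difference passed edgeR (-0.47 ± 0.34, adjusted p = 0.498, for Rbpj-deleted tumours and -0.73 ± 0.35, adjusted p = 0.261, for control tumours). Without the Ccl8-led cluster Cd63 was called lower in control tumours (-1.20, edgeR adjusted p = 0.0218).

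Cd68, the endosomal glycoprotein used as a stain for phagocytes, had 600 and 1133 CPM in microglia-like cells of Rbpj-deleted tumours, 567 and 493 CPM of control tumours, and 701 and 722 CPM of healthy brain. The 2 Rbpj-deleted libraries stood on either side of the healthy ones. No change passed edgeR, with 0.48 ± 0.27 for Rbpj-deleted tumours against healthy brain (adjusted p = 0.281), a value that was -0.05 without Rbpj-deleted replicate 2, the library with the high border macrophage markers, and 0.83 without replicate 1 (edgeR adjusted p = 0.0135). The part of border macrophage RNA in Cd63 and Cd68 was not tested beyond leaving out that library. For Cd68, monocyte/macrophage-like cells had 473 and 654 CPM in Rbpj-deleted tumours, 372 and 482 CPM in control tumours, and 810 and 847 CPM in healthy brain. In CPM, which is without TMM scaling, every tumour library lay below both healthy ones there. The TMM factors were 0.900 for Rbpj-deleted replicate 2 and 1.13 and 1.16 for the healthy libraries, so this separation need not hold on the tested scale. The changes were -0.25 ± 0.33 and -0.67 ± 0.33 and were not called (edgeR adjusted p = 0.724 and 0.282).

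**Figure D2:**
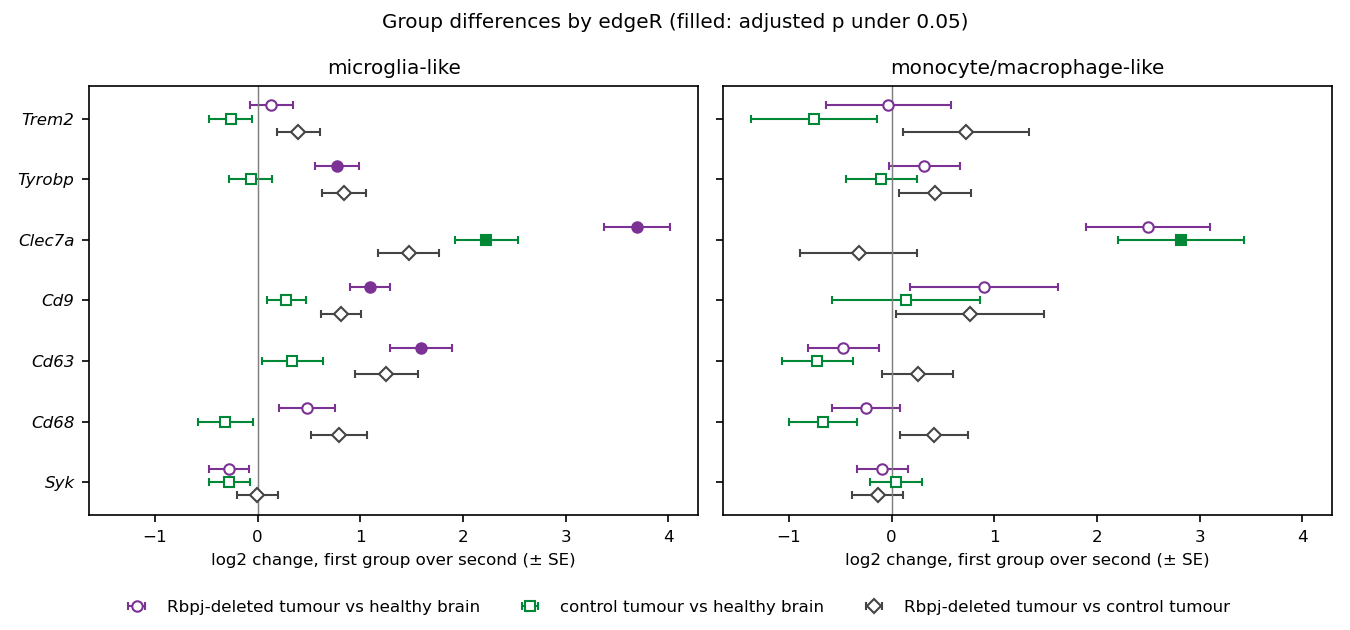
Log2 change (x axis, first group over second, ± SE, 2 libraries per group) of each gene in microglia-like cells (left) and monocyte/macrophage-like cells (right) for the 3 comparisons, with filled symbols where the edgeR adjusted p was under 0.05. Against healthy brain Clec7a lies furthest right in both classes, and 5 of the 6 filled symbols, 4 for Rbpj-deleted and 1 for control tumours against healthy brain, belong to microglia-like cells.

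Whether the group changes differed between the classes was tested with limma on the difference of monocyte/macrophage-like and microglia-like log2 CPM within each library, over 10548 genes. None of the 7 genes was called: 0 of 7 for Rbpj-deleted tumour against healthy brain (0.199% of all genes called), 0 of 7 for control tumour against healthy brain (0.114%) and 0 of 7 for Rbpj-deleted against control tumour (0%). Among the 7 genes the lowest unadjusted p-values belonged to Clec7a between Rbpj-deleted and control tumours (-1.61 ± 0.33, limma adjusted p = 0.399) and to Cd63 between Rbpj-deleted tumours and healthy brain (-1.97 ± 0.46, limma adjusted p = 0.202). The call of Cd63 in 1 class and its absence in the other is therefore not shown to be a difference between them. Clec7a was called without control replicate 2 (-2.11 between Rbpj-deleted and control tumours, limma adjusted p = 0.0141), and for Rbpj-deleted tumours against healthy brain with either control library left out (-1.15 and -1.13, limma adjusted p = 0.0471 and 0.046).

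Within microglia-like cells, 4 of the other 6 genes were higher in cells with a Clec7a UMI in 6 of 6 libraries. Of the 3044 genes at 50 CPM or more, 10.7% were higher in 6 of 6 libraries and 13.5% were lower. Cells thinned to 3000 UMIs were parted by whether they held a Clec7a UMI: 417 of 905 and 187 of 398 cells in Rbpj-deleted tumours, 43 of 220 and 20 of 151 cells in control tumours, and 186 of 4390 and 93 of 1571 cells in healthy brain. Cd63 was higher in the cells with Clec7a in 6 of 6 libraries, by 1.44 ± 0.49 in log2 (SD, n = 6, two-sided exact sign-flip test, p = 0.03125, the smallest that 6 libraries allow, and 0.129 when adjusted over the 3044 genes). No gene passed after that adjustment; 17 genes had a larger difference than Cd63 and 22 a larger one than Cd9. In Rbpj-deleted tumours Cd63 had 1081 and 2259 CPM in cells with a Clec7a UMI, against 465 and 924 CPM in those without; in healthy brain it had 1449 and 1805 CPM, against 409 and 399 CPM. Cd9 was higher by 1.24 ± 0.45, Cd68 by 0.42 ± 0.24 and Tyrobp by 0.40 ± 0.09, each in 6 of 6 libraries with the same exact p of 0.03125 and the same adjusted p of 0.129. For Cd68 and Tyrobp, 236 and 250 genes had a larger difference. Trem2 stood at 0.10 ± 0.08 (higher in 5 of 6, exact p = 0.0625), and Syk stood at -0.38 ± 0.51 (higher in 1 of 6, exact p = 0.0938). Thinning equalised depth, but the cells were not matched for cluster. Within the Spp1-led cluster alone, in the 4 libraries with enough cells, the differences were 0.93 for Cd9, 0.86 for Cd63, 0.30 for Tyrobp and 0.21 for Cd68, and 4 libraries cannot give an exact p below 0.125.

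**Figure D3:**
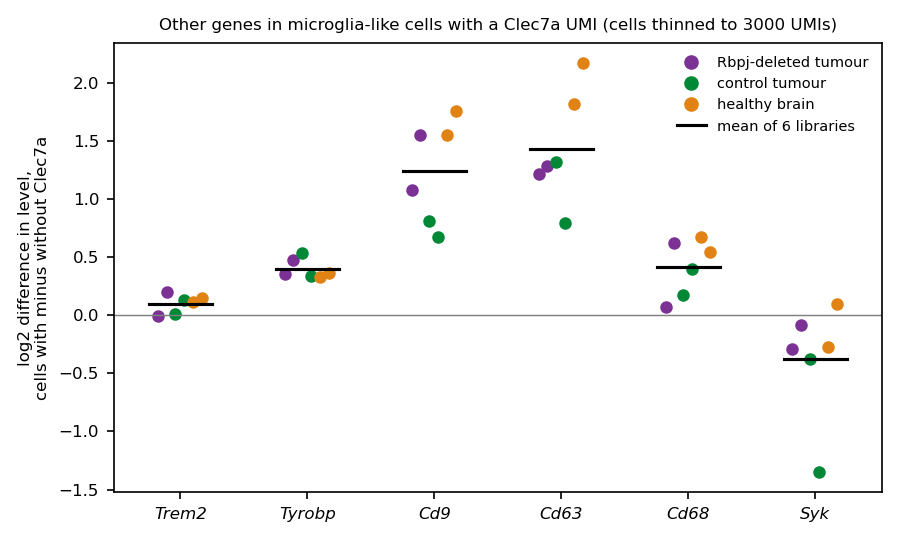
Log2 difference in level between microglia-like cells with and without a Clec7a UMI (y axis) for each of the other 6 genes, 1 point per library coloured by group and a line at the mean of 6 libraries. Cd9, Cd63, Cd68 and Tyrobp lie above 0 in 6 of 6 libraries, while Trem2 lies close to 0 and Syk lies below 0 in 5 of 6.

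By cluster, which is a description without a test, Clec7a was highest, over all libraries summed, in the Csf1-led (614 CPM) and Spp1-led (466 CPM) of the 7 microglia-like clusters. The Ifit3-led one followed (110 CPM), where Rbpj-deleted replicate 1 had 273 CPM and healthy replicate 1 had 33.5 CPM. The summed level of the Csf1-led cluster is mostly that of Rbpj-deleted replicate 1, which gave 758 of its 1020 cells. By the median over libraries, Clec7a was lower in the Csf1-led (427 CPM, 4 libraries) than in the Spp1-led cluster (462 CPM, 6 libraries). In the Spp1-led cluster it had 368 and 581 CPM in Rbpj-deleted tumours, 543 and 257 CPM in control tumours, and 381 and 564 CPM in healthy brain, so the groups overlapped. That cluster held 23.3% and 80.4% of the microglia-like cells of Rbpj-deleted tumours, 13.7% and 41 of 205 cells of control tumours, and 4.69% and 6.77% of healthy brain. In the Csf1-led cluster, which held 0.0215% and 0.0604% of healthy microglia-like cells, Clec7a had 717 and 469 CPM in Rbpj-deleted tumours and 386 and 206 CPM in control tumours. In the Hspb1-led cluster it had 47.8 and 9.32 CPM in Rbpj-deleted tumours, 12.3 and 7.22 CPM in control tumours, and 11.7 and 19.5 CPM in healthy brain. Cd9 in the Spp1-led cluster was highest in the healthy libraries, at 1539 and 1727 CPM in Rbpj-deleted tumours, 1597 and 1240 CPM in control tumours and 2333 and 2535 CPM in healthy brain. Cd63 there had 835 and 1798 CPM in Rbpj-deleted tumours, 1436 and 675 CPM in control tumours and 1580 and 1906 CPM in healthy brain. In the Csf1-led cluster Tyrobp had 4069 and 4102 CPM in Rbpj-deleted tumours against 2556 and 2376 CPM in control tumours. In the same order, Cd9 had 1543 and 1404 CPM against 929 and 938 CPM. Cd63 had 895 and 1372 CPM against 515 and 435 CPM, and Trem2 3022 and 3078 CPM against 2327 and 2394 CPM. Rbpj-deleted replicate 2 gave only 52 cells to this cluster. The share of all genes whose tumour groups part there was not counted, so these values do not show that the named genes stand out. Cd9, Cd63 and Clec7a were among the leading genes of the Spp1-led cluster although none of them entered the clustering.

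Among monocyte/macrophage-like clusters, Clec7a was highest in the Lyz1-led one, with 1040 and 562 CPM in Rbpj-deleted tumours and 1416 and 636 CPM in control tumours. The Ccl8-led cluster had 580 and 233 CPM in Rbpj-deleted tumours and 699 and 237 CPM in control tumours; the Lyve1 cluster had 295 and 127 CPM in Rbpj-deleted tumours, 155 CPM in the 1 control library with enough cells and 74.5 and 139 CPM in healthy brain. Cd63 ran the other way: it had 1400 and 1625 CPM in Rbpj-deleted tumours, 1366 CPM in the control library and 939 and 1367 CPM in healthy brain in the Lyve1 cluster, but 425 and 431 CPM in Rbpj-deleted and 146 and 365 CPM in control tumours in the Lyz1-led cluster. Trem2 in control replicate 1 was low in both tumour clusters, at 192 CPM in the Lyz1-led and 257 CPM in the Ccl8-led cluster, against 1131 and 1388 CPM in control replicate 2. In the Ace-led cluster, whose leading gene Treml4 also marks patrolling monocytes, Syk reached 122 and 199 CPM in Rbpj-deleted tumours and 183 and 214 CPM in healthy brain.

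**Figure D4:**
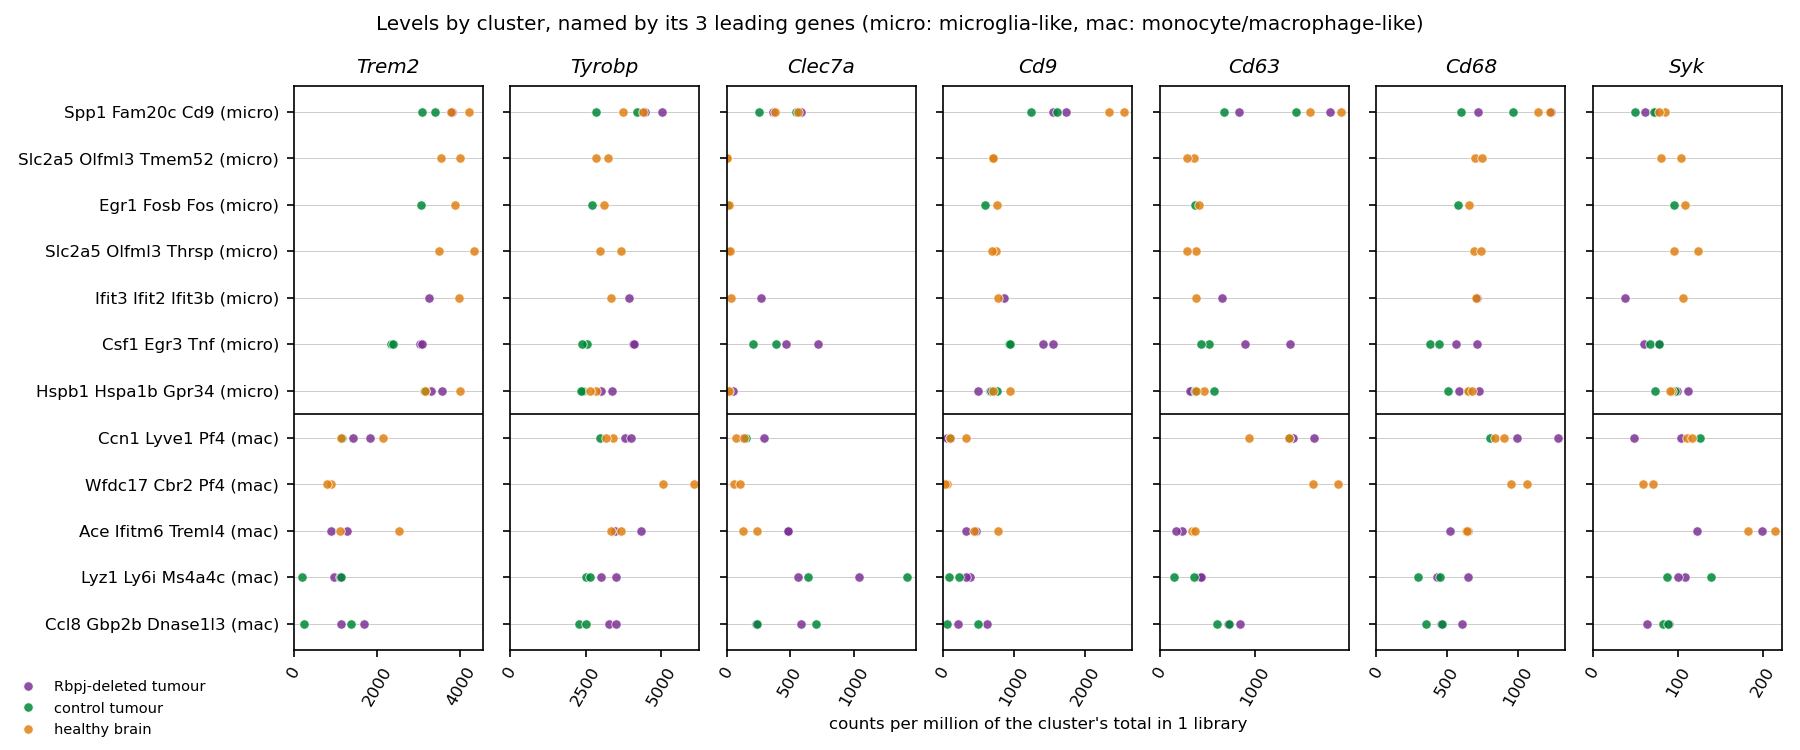
Level of each gene (x axis, CPM within a cluster, linear from 0) in the 7 microglia-like (above the line) and 5 monocyte/macrophage-like clusters (below it), 1 point per library with enough cells, coloured by group. Among microglia-like clusters Clec7a has its highest points in the Spp1-led and Csf1-led ones, and among macrophage clusters in the Lyz1-led one. Trem2 is higher in every microglia-like cluster than in most points of the macrophage clusters.

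Across all named classes, again as description, Trem2 was highest in microglia-like cells (median 3196 CPM, 2743 to 3979 over 6 libraries), which did not overlap monocyte/macrophage-like cells (median 1209, 328 to 2172). Next came plasmacytoid dendritic-like (median 1107 CPM, 2 libraries), dendritic-like (927) and neutrophil-like cells (371), whose ranges overlapped one after the other, and then T-like, NK-like and B-like cells at 5.47 to 83.0 CPM. Tyrobp was lowest in T-like (21.4 to 157 CPM) and B-like cells (114 to 774 CPM). NK-like cells, in which DAP12 pairs with activating NK receptors, had 2290 to 3097 CPM of it, a range overlapping microglia-like cells. Clec7a was ordered dendritic-like (median 457 CPM), monocyte/macrophage-like (415), neutrophil-like (298), plasmacytoid dendritic-like (225) and microglia-like (222), with overlaps except between neutrophil-like and plasmacytoid dendritic-like cells. Cd9 was highest in microglia-like cells (833 to 1631 CPM), without overlap with dendritic-like cells (319 to 660 CPM). Cd63 and Cd68 were spread over myeloid classes with overlapping ranges and stayed at or below 44.3 and 87.0 CPM in the 3 lymphoid classes. Syk was highest in B-like cells (159 to 533 CPM), where it acts below the B cell receptor, and lowest in T-like cells (0 to 5.15 CPM).

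Further genes of the pathway were taken from 10 lists. In microglia-like cells of Rbpj-deleted tumours against healthy brain, 8.37% of all genes tested were called higher and 3.35% lower. Among receptors other than Trem2 that use DAP12, 6 of 12 were tested in microglia-like cells. There 2 rose and 1 fell in Rbpj-deleted tumours against healthy brain (list median 1.43 in log2, all genes -0.02). Both that rose were under 20 CPM in the higher group. The one that fell was Siglech, a sialic-acid-binding receptor of microglia, with 911 CPM against 1899 CPM (-0.86 ± 0.25, edgeR adjusted p = 0.0455). Siglech is 1 of the 10 microglia markers, whose sum was 15610 and 18790 CPM in Rbpj-deleted tumours and 28820 and 29100 CPM in healthy brain. Whether it fell beyond the other markers was not tested. Of the Fc receptors and other signalling adaptors 3 of 7 rose and 0 fell (median 0.60). Fcgr4, a low-affinity IgG receptor, had 143 and 198 CPM in Rbpj-deleted tumours against 13.8 and 22.4 CPM in healthy brain (3.42 ± 0.28, edgeR adjusted p = 1.8e-05). Fcgr2b, the inhibitory Fc receptor, had 276 CPM against 151 CPM (1.07 ± 0.20, edgeR adjusted p = 0.00453), and Hcst, the DAP10 adaptor, 53.8 CPM against 33.8 CPM (0.88 ± 0.19, edgeR adjusted p = 0.0123). Of 18 genes that signal below Syk 2 rose, both under 20 CPM in the higher group, and 0 fell (median -0.10). Of 11 tested brakes on ITAM signalling 0 were called (median -0.27).

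Of the C-type lectins listed with Clec7a 5 of 11 tested rose and 2 fell in microglia-like cells of Rbpj-deleted tumours against healthy brain (median 2.20). For this and the following lists the shares of all genes tested were 8.37% called higher and 3.35% lower. Clec2d rose by 1.69 ± 0.27 (92.9 CPM against 33.6 CPM, edgeR adjusted p = 0.00273), while Clec4a2, an inhibitory lectin, and its relative Clec4a3 fell by 0.88 and 0.79 (115 CPM against 244 CPM and 65.2 CPM against 129.5 CPM, edgeR adjusted p = 0.0148 and 0.0256). The other lectins that rose were left out by the naming rule (up to 3 per list, smallest p first, 20 CPM or more). The list median of 2.20 lies above the change of each named lectin and so rests on genes not shown. Of 13 other phagocytic receptors 3 rose and 0 fell: Axl, a receptor for phosphatidylserine-bound Gas6, had 173 and 180 CPM against 6.43 and 8.66 CPM (4.72 ± 0.26, edgeR adjusted p = 1.1e-06), and Cd36, a scavenger receptor, 53.3 and 64.5 CPM against 1.57 and 2.29 CPM (5.18 ± 0.29, edgeR adjusted p = 1.1e-06). The remaining receptor that rose was under 20 CPM in the higher group. Of 11 lysosomal genes 2 rose, Npc2, which carries cholesterol out of lysosomes (1938 CPM against 877 CPM, 1.34 ± 0.21, edgeR adjusted p = 0.00184), and Atp6v1a, a subunit of the proton pump (105 CPM against 77.2 CPM, 0.65 ± 0.19, edgeR adjusted p = 0.0437). None of 12 other tetraspanins and none of 3 tested Trem2 ligands and sheddases was called. Of 17 tested disease-associated microglia genes outside the members 12 rose and 0 fell (median 1.88), among them Axl again, Itgax, which encodes CD11c (122 and 181 CPM against 6.92 and 7.53 CPM, 4.60 ± 0.29, edgeR adjusted p = 2.6e-06), and Fth1, the ferritin heavy chain (11068 CPM against 3069 CPM, 2.05 ± 0.23, edgeR adjusted p = 0.000173).

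In control tumours against healthy brain the microglia-like counts were smaller, as were the shares of all genes tested (3.08% called higher and 0.439% lower). Of 17 disease-associated genes 6 rose (median 1.51), as did 2 of 13 phagocytic receptors (Cd36 and Axl). Further rises were 1 of 7 Fc receptors and adaptors (Fcgr4, 2.89 ± 0.27, edgeR adjusted p = 9.1e-05) and 1 of 11 lectins (Clec2d, 1.93 ± 0.27, edgeR adjusted p = 0.00245). Of 6 DAP12 partners 1 rose, under 20 CPM in the higher group. In the other 5 lists 0 rose, and 0 fell in any list. Between Rbpj-deleted and control tumours 1 gene of the lists was called, Itgax, where 0.0807% of all genes tested were called in either direction. Itgax had 122 and 181 CPM in Rbpj-deleted and 27.6 and 43.6 CPM in control tumours (2.19 ± 0.27, edgeR adjusted p = 0.0111). The median of the disease-associated list was 0.93 there.

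In monocyte/macrophage-like cells 7 of 18 disease-associated genes rose in Rbpj-deleted tumours against healthy brain and 6 of 18 in control tumours (medians 1.43 and 1.60). Of all genes tested, 3.41% were called higher and 1.52% lower in Rbpj-deleted tumours, and 3.96% higher and 1.21% lower in control tumours. Itgax had 55.0 and 125 CPM in Rbpj-deleted tumours, 60.6 and 76.6 CPM in control tumours and 6.99 and 7.45 CPM in healthy brain. Axl had 212 and 228 CPM in Rbpj-deleted tumours, 171 and 174 CPM in control tumours and 29.9 and 33.5 CPM in healthy brain. Stab1, a scavenger receptor of border macrophages, fell by 1.71 in Rbpj-deleted and by 1.96 in control tumours (245 CPM, 207 CPM and 981 CPM in healthy brain; edgeR adjusted p = 0.0291 and 0.0178). The 10 border macrophage markers, of which Stab1 is 1, summed to 2761 and 1968 CPM in Rbpj-deleted tumours, 1852 and 2724 CPM in control tumours and 8803 and 13100 CPM in healthy brain. The part of such cells in the Stab1 level was not tested. Fcgr4 rose by 2.49 ± 0.34 and 2.50 ± 0.34 (edgeR adjusted p = 0.00586 and 0.00534), and Clec12a, an inhibitory lectin for uric acid crystals, by 1.72 ± 0.38 and 1.73 ± 0.39 (edgeR adjusted p = 0.0393 and 0.039). Of the DAP12 partners 2 of 12 rose in Rbpj-deleted and 1 of 12 in control tumours: Klrk1, the NKG2D receptor (91.1 CPM in Rbpj-deleted tumours, 101 CPM in control tumours, 3.06 CPM in healthy brain), and, in Rbpj-deleted tumours, Clec5a (102 CPM against 49.4 CPM, 1.35 ± 0.31, edgeR adjusted p = 0.0435). NK and T cells also express Klrk1, which is itself 1 of the 10 NK markers. The NK marker sum therefore moves with Klrk1 by construction. It was 108 and 131 CPM in Rbpj-deleted tumours, 165 and 111 CPM in control tumours and 10.3 and 6.25 CPM in healthy brain. Klrk1 alone had 75.3 to 107 CPM, 92.3 to 110 CPM and 2.07 to 4.05 CPM in the same groups. T markers, which leave out Klrk1, summed to 191 and 83.6 CPM, 405 and 147 CPM, and 70.8 and 56.7 CPM. The part of NK and T cells in the Klrk1 level was not tested. Of 12 tested lectins 3 rose in Rbpj-deleted and 4 in control tumours, and the latter included Clec4e, a receptor for mycobacterial and damaged-cell glycolipids (162 CPM in control tumours against 22.4 CPM in healthy brain, 3.19 ± 0.64, edgeR adjusted p = 0.0461), and Clec9a. Among those that rose in Rbpj-deleted tumours, only Clec12a reached 20 CPM in the higher group. The dendritic gene Clec9a had 18.8 and 21.6 CPM in control tumours and no count in healthy brain. The 10 conventional dendritic markers, of which Clec9a is 1, summed to 525 and 332 CPM against 278 and 172 CPM. Pilra, an inhibitory receptor among the brakes (73.1 CPM against 29.9 CPM, 1.60 ± 0.31, edgeR adjusted p = 0.023), Cd93 (44.4 CPM against 17.6 CPM, 1.64 ± 0.31, edgeR adjusted p = 0.0213) and Cst7, a cystatin (55.4 CPM against 2.61 CPM, 4.35 ± 0.70, edgeR adjusted p = 0.0242), rose in Rbpj-deleted tumours. Cd52 rose (782 CPM against 99.7 CPM, 3.27 ± 0.42, edgeR adjusted p = 0.00465) and Tspan4, a tetraspanin, fell by 1.28 in log2 (21.2 CPM against 61.0 CPM, edgeR adjusted p = 0.0469) in control tumours. Of 16 other phagocytic receptors 3 rose and 2 fell in Rbpj-deleted tumours and 1 rose and 1 fell in control tumours; 1 of 7 Fc receptors and adaptors rose in each. Genes below Syk (18), lysosomal genes (12) and Trem2 ligands and sheddases (3) held no call against healthy brain. Between Rbpj-deleted and control tumours no gene of the lists was called in this class.

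The genes whose log2 CPM followed each member most closely over the 12 sums of 2 classes and 6 libraries were found among 3058 genes; the sums share classes and libraries, so the Pearson coefficients are a description. Trem2 was closest to Lgmn, a lysosomal protease (r = 0.994), Kcnk13, a potassium channel (0.983), and Syngr1 (0.981). Clec7a was closest to Gadd45b, a stress-response gene (0.973), Atp6v1d, a proton pump subunit (0.958), and Npm1 (0.957), and Cd9 to Npnt (0.977), the tetraspanin Cd81 (0.976) and Itm2c (0.972). Cd63 was closest to Ctsb, a cathepsin (0.939), Dnajb14 (0.931) and Dtnbp1 (0.878), and Cd68 to Atp6ap1 (0.933), Hexa (0.911) and Ctsa (0.899). Tyrobp was closest to Fuca1 (0.913), Spcs1 (0.902) and Mydgf (0.900), and Syk to Ppp2r5a (0.910), Was, a regulator of actin (0.909), and Clec4a3 (0.906).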

How the data were processed

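The deposited table holds counts per gene and barcode, taken as UMI counts because every value is whole; per the submitters' processing notes, kallisto 0.46.0, bustools 0.39.3 and mm10 were used. The lowest barcode total in the authors' table was 1000 counts. Barcodes under 500 genes or over 10% mitochondrial counts (17), index-hopped copies with over 10 times their counts in another library (256) and barcodes with markers of 2 lineages (2662, 1700 of them myeloid with T or NK markers) were removed; no doublet caller was run. The other 14427 cells were clustered by Leiden (scanpy 1.11.5; 2000 variable genes without the 7 members, 30 components, 20 neighbours, resolution 1) into 24 clusters, of which 4 stayed unnamed. Names rest on markers and end in "-like"; the removal and naming rules were revised after the clusters were seen.

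Counts summed per library and class were tested with edgeR 4.0.16 (R 4.3.3; TMM, filterByExpr, robust quasi-likelihood, all 6 libraries, 3 residual degrees of freedom) on the deposited counts. Class differences used limma 3.58.1 with a prior count of 2, and DESeq2 1.42.0 was an alternative. The fits were tested on simulated counts. Members and lists were chosen with earlier results of these data known. Named genes are the 7 members, up to 3 others per list, class and comparison (adjusted p under 0.05, smallest p first, 20 CPM or more in the higher group) and the 3 most like each member (mean of at least 50 CPM). Same-numbered libraries are not known to be paired. Intervals and shares reflect counting in sparse droplets, where free RNA adds UMIs.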

Additional observations from a re-analysis of the deposited data

How the results depend on the processing

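The 7 genes' calls against healthy brain in microglia-like cells were the same with DESeq2 size factors, without a filter on low counts, with the DESeq2 Wald test and with mixed barcodes kept; Clec7a and Cd9 (Rbpj-deleted tumours) also held with the replicate block, the library split as a term, any 1 library left out and without the Csf1-led cluster, and Cd63 under the same settings except the last. Without clusters that lack an own marker, which removes the Spp1-led and Csf1-led clusters (69 and 38 Rbpj-deleted cells left), 0 of 7 were called: Clec7a stood at -0.42 for control tumours, Cd9 at -0.13, Cd68 at -0.05 and Syk at 0.07 for Rbpj-deleted tumours against healthy brain, Cd9 at -0.16, Cd63 at -0.31 and Syk at 0.23 against control tumours, Atp6v1a at -0.04 and Clec4a3 at 0.19. Library-size scaling moved the median of all genes by -0.201 and -0.109 (microglia-like) and by -0.294 and -0.297 (monocyte/macrophage-like) for Rbpj-deleted and control tumours against healthy brain. The cause of these and the following changes was not tested.

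Counts of called genes moved as follows in microglia-like cells. Without a filter they were 1968 (1307) for Rbpj-deleted tumours against healthy brain, 794 (393) for control tumours and 440 (9) for Rbpj-deleted against control tumours, the counts in brackets being those reported. Without clusters that lack an own marker they were 0, 8 and 0, and without the Csf1-led cluster 669, 44 and 2. For Rbpj-deleted against control tumours the DESeq2 Wald test gave 166, with 4 of the 7 genes, and the library split as a term 22. With 1 library left out, control tumours gave 159 to 636 and Rbpj-deleted against control tumours 0 to 360, the highest without Rbpj-deleted replicate 1. In monocyte/macrophage-like cells the counts for Rbpj-deleted against healthy, control against healthy and Rbpj-deleted against control were 1403, 1537 and 92 without a filter, 904, 969 and 20 by the DESeq2 Wald test, and 1591, 1501 and 1 without clusters that lack an own marker. The library split gave 169 and 349 against healthy brain. With 1 library left out they ranged over 171 to 807, 200 to 823 and 0 to 20. The class difference gave 1 to 123, 4 to 391 and 0 to 72.

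With the replicate block the counts were 28 (9 as reported) for Rbpj-deleted against control tumours in microglia-like cells, 357 (554) for Rbpj-deleted and 372 (581) for control tumours against healthy brain in monocyte/macrophage-like cells, and 4 (21) and 2 (12) for the same comparisons in the class difference. Tyrobp in microglia-like and Clec7a in monocyte/macrophage-like cells lost their calls. Same-numbered libraries share only a number: their deviations correlated at -0.155, -0.107 and 0.0373 in microglia-like and -0.53, 0.262 and -0.336 in monocyte/macrophage-like cells.

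The other values that turned sign were uncalled as reported. In microglia-like cells with 1 library left out, Tyrobp ranged over -0.21 to 0.08 for control tumours, Trem2 over -0.03 to 0.31 and Cd68 over -0.05 to 0.83 for Rbpj-deleted tumours, and Syk over -0.21 to 0.15 between tumours; Trem2 was -0.07 with library size alone, and Syk 0.0015 with DESeq2 size factors, 0.04 without a filter, 0.0028 by the DESeq2 Wald test and 0.23 with the library split. In monocyte/macrophage-like cells of control tumours, Cd9 ranged over -1.14 to 0.91 and Syk over -0.24 to 0.27. With library size alone they were -0.14 and -0.26. Cd9 was -0.36 with the library split and -0.26 without clusters that lack an own marker, and Tyrobp was 0.0028 there and 0.0019 with mixed barcodes kept. For Rbpj-deleted tumours Trem2 ranged over -0.42 to 0.51 (0.51 with the library split), and Syk was 0.02 with mixed barcodes and 0.09 without those clusters. Between tumours Clec7a ranged over -0.91 to 0.76, Syk over -0.35 to 0.16, and Cd63 was -0.20 with the library split. In the class difference with 1 library left out, control tumours gave -1.62 to 0.21 for Trem2, -0.15 to 0.09 for Tyrobp, -0.07 to 0.98 for Clec7a, -1.24 to 0.66 for Cd9 and -0.06 to 0.67 for Syk. Rbpj-deleted tumours gave -0.39 to 0.18 for Trem2, -0.73 to 0.49 for Cd9 and -0.02 to 0.45 for Syk. Between tumours Trem2 ranged over -0.30 to 1.55, Cd9 over -0.76 to 1.17 and Syk over -0.44 to 0.27.

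Among cells with and without Clec7a, clusters with an own marker left 2 libraries, too few for a call: Tyrobp 0.25, Cd9 1.19, Cd63 1.76, Cd68 0.33 and Syk 0.16. Within the Spp1-led cluster the values were 0.30, 0.93, 0.86 and 0.21 for the first 4. At 6000 UMIs the same 4 genes were higher in 6 of 6 libraries. The Csf1-led and Spp1-led cluster alternatives were chosen after seeing the data. With 82 to 4646 cells per library and class and 2 libraries per group, the spread between libraries limits these results.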
